A study of Mus musculus with 58 samples.

Results

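Igf2r, Airn, Slc22a2, Slc22a3, Grb10, Dlk1, Meg3 and Rian are the genes of 3 imprinted domains on mouse chromosomes 17, 11 and 12. These 8 genes were chosen by name out of the 24077 in the deposited count table, and all 8 have a row in it. No cut on their values was used, but earlier results of these data were known. Their reads were followed in fully grown oocytes (FGO), in morulae and in ExE, which stands for extraembryonic ectoderm, a trophoblast layer that contributes to the placenta. The questions were at which stage reads from 1 parental allele prevail, and how levels and alleles differ where the oocyte was labelled as a knockout of the Polycomb genes Pcgf1 and Pcgf6.

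FGO came from strain B6.129, with 2 control (CTR) libraries labelled wild type and 2 libraries labelled as Pcgf1/6 double knockout (KO). Morulae and ExE were F1 hybrids of strain B6.129 x PWK. They comprised 2 CTR and 2 matKO morula libraries and 2 CTR and 4 matKO ExE libraries, where CTR is labelled wild type and matKO is a maternal double knockout of Pcgf1/6. The sources used here do not give the promoter that drove the deletion, the number of animals or embryos pooled per library or the ExE day. Nothing states that replicates came from separate animals, so p-values measure the spread between these libraries, which may be technical. The cross ran in 1 direction in every library used, so the maternal allele and the B6.129 strain cannot be told apart; the 4 reciprocal-cross morula RNA samples are not analysed here.

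An imprinted gene is expressed mainly from 1 parental allele, and in these 3 domains the choice is set by DNA methylation that the egg or the sperm passes on at a control region. Igf2r encodes the receptor that carries mannose 6-phosphate-tagged enzymes to lysosomes and clears the growth factor IGF2; it is known as maternally expressed in mice after implantation. Airn, a long noncoding RNA that starts inside Igf2r on the opposite strand, is known as paternally expressed, and in the placenta it silences the paternal copies of Igf2r and of the organic cation transporters Slc22a2 and Slc22a3. Grb10, an adaptor that dampens insulin and IGF receptor signalling, is known as maternally expressed in placenta. In the Dlk1-Meg3 domain the Notch-related membrane protein Dlk1 is known as paternal, and the noncoding RNAs Meg3 and Rian, a host of small nucleolar RNAs, as maternal. PCGF1 and PCGF6 are subunits of Polycomb repressive complexes that place ubiquitin on histone H2A.

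Totals ranged from 19805264 to 26364085 counts in FGO, from 1299715 to 1685510 in morulae and from 3397585 to 4361832 in ExE. FGO columns count all reads of a gene, whereas morula and ExE columns count reads assigned to the maternal or the paternal allele, so levels were not tested between FGO and embryos. Of autosomal reads, 50.5 to 51.5% were maternal in 9 of the 10 embryo libraries and 35.1% in ExE matKO replicate 3, which stands apart on every autosome (31.5 to 40.1%). In FGO, Pcgf1 fell from 1253 ± 217 to 28.8 ± 8.51 CPM (counts per 1000000 counts of the library; mean ± SD, n = 2 each) and Pcgf6 from 412 ± 23.3 to 198 ± 30.3 CPM (edgeR adjusted p = 1.96e-05 and 0.0102). Which part of Pcgf6 was deleted is not stated, so whether the remaining reads lie outside it was not tested. The maternal share of Pcgf6 reads fell in ExE from 61.9 ± 5.26% (SD, n = 2) to 36.8 ± 8.08% (SD, n = 4, edgeR adjusted p = 1.07e-05). In morulae it was 60.2 ± 3.79% in CTR and 43.7 ± 4.03% in matKO (SD, n = 2 each), not called (edgeR adjusted p = 0.236). Pcgf1 had at most 8 allele-assigned reads in any embryo group, too few to check the deletion there. Those 8 reads were in matKO morulae and all maternal, and CTR morulae had 1 read, which was paternal. The 8 oocyte markers summed to 12274 to 17535 CPM in FGO against 47.4 to 62.9 CPM for granulosa cells, and 9 trophectoderm and ExE markers summed to 3547 to 8670 CPM in ExE.

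Promoter windows are shown for Igf2r and the overlapping antisense Airn, for Grb10 and for Meg3, 1 window or pair of windows per domain. The 250 bases before the RefSeq start (GRCm38.p6, the mm10 assembly) are printed 5′ to 3′ on the gene's own strand, with CG pairs, the sites of DNA methylation, in capitals.
Igf2r, chr17:12769707-12769956, minus strand: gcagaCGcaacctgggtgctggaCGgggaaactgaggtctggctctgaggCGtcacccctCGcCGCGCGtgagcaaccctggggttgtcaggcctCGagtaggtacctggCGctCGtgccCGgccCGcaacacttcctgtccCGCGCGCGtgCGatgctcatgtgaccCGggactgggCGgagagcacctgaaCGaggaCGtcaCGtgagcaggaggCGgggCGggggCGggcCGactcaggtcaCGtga
Airn, chr17:12741061-12741310, plus strand: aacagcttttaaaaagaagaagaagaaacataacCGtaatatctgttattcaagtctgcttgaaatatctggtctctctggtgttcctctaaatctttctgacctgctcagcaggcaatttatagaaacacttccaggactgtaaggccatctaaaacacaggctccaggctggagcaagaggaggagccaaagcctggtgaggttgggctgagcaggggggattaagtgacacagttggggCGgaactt
Grb10, chr11:12037421-12037670, minus strand: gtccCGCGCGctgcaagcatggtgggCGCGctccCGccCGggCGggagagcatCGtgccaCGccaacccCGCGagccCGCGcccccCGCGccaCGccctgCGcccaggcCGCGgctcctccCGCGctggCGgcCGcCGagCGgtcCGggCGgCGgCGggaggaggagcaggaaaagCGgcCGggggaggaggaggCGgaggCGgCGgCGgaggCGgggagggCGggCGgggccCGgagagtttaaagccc
Meg3, chr12:109540746-109540995, plus strand: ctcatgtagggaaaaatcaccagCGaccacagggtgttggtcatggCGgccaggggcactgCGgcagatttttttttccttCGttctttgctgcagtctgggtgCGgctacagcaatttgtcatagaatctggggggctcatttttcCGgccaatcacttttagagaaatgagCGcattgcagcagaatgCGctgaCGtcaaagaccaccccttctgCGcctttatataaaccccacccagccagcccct
The Grb10 window, the more upstream of its 2 listed starts, held 40 CG pairs, and 1.31% of 32851 mouse windows of this length held as many. The Igf2r window held 27 (8.56% of windows held as many), Meg3 10 (37.8%) and Airn 2 (81.2%), against a median of 6. The second listed Meg3 start and the Rian start had 0 CG pairs, and Dlk1 had 8. The listed starts can differ from the gene spans given below. The Dlk1 window (chr12:109452573-109452822) lies inside its gene span, and the Grb10 window overlaps the end of its span. TGCCGC, the core letters bound by the imprint-maintaining protein ZFP57, occurred on either strand in 1 copy in the Meg3 window and in 1 copy in the Slc22a2 window, in no other window of these genes and in 8.68% of all windows.

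Igf2r (17:12682406-12769706) had reads of both alleles in control morulae and mostly maternal reads in control ExE. In CTR morulae replicate 1 had 27 maternal and 13 paternal reads and replicate 2 had 22 and 20. In CTR ExE the counts were 31 maternal and 4 paternal in replicate 1, and 28 and 2 in replicate 2. The maternal share was thus 59.9 ± 10.7% in morulae and 91.0 ± 3.37% in ExE (SD, n = 2 each), and the libraries of the stages did not overlap.

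Each gene was tested for a maternal over paternal ratio within libraries with edgeR, taking the allele totals of each library into account. Only autosomal genes were tested in ExE, and only genes with a mean of at least 20 allele reads per library. Of the 8 genes, 2 could be tested in CTR morulae and Meg3 was called maternal, against a background of 25.2% of 7938 genes called and 14.6% called maternal; in CTR ExE 4 could be tested and all 4 were called maternal, against 29.3% of 6916 genes called and 16.1% called maternal. Igf2r was not called in morulae (log2 ratio 0.50, SE 0.42, adjusted p = 0.455) and was called in ExE (log2 3.17, SE 0.52, adjusted p = 0.00256). The difference of its ratio between the stages was log2 2.65 (SE 0.72) and did not pass at adjusted p = 0.0560; over the alternatives the adjusted p was 0.0522 to 0.284, so a difference between the stages was not shown for Igf2r.

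Grb10 (11:11930499-12037428) had reads of both alleles in control morulae and almost none from the paternal allele in control ExE. CTR morulae had 7 maternal and 6 paternal reads in replicate 1 and 11 and 10 in replicate 2, a maternal share of 53.1 ± 1.04% (SD, n = 2). CTR ExE had 130 maternal and 4 paternal reads in replicate 1 and 114 and 0 in replicate 2, a share of 98.5 ± 2.11% (SD, n = 2). The 2 parental copies were near balance in morulae, and nearly all ExE reads were maternal. In ExE the log2 ratio was 5.77 (SE 0.50, adjusted p = 6.24e-05). The difference of the ratio between the stages was log2 5.66 (SE 0.90, edgeR adjusted p = 0.00543); of the 4 of these genes that were tested for it, Grb10 alone was called, against a background of 8.37% of 7788 genes called and 4.62% called towards the maternal side in ExE. Without morula CTR replicate 2, which holds 21 of the 34 morula reads, the adjusted p was 0.0521.

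Meg3 (12:109540996-109571729) had mainly maternal reads already in CTR morulae. CTR morulae had 28 maternal reads and 1 paternal read in replicate 1 and 22 and 1 in replicate 2, a ratio of 25.0 over the group (95% exact interval 6.57 to 212; edgeR log2 4.40, SE 0.70, adjusted p = 0.0108). In CTR ExE all 108 and 23 reads were maternal, at least 43.7-fold more than paternal against a floor of 3 reads over the group. The edgeR call in ExE (adjusted p = 0.000177) was lost with the DESeq2 Wald test (adjusted p = 0.212), the highest adjusted p over its alternatives, of which the lowest was 1.29e-10. The change of ratio between stages was not called (edgeR adjusted p = 0.190). Meg3 had 7.70 and 7.82 CPM in CTR FGO, and the 8 oocyte markers still summed to 58.7 and 73.7 CPM in CTR morulae. Reads left over from the oocyte would also count as maternal, and their part in the morula reads of these genes was not tested.

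Rian (12:109603945-109661716), transcribed downstream of Meg3, had the same allele on top. CTR morulae had 16 maternal and 2 paternal reads in replicate 1 and 13 and 0 in replicate 2, a ratio of 14.5 (95% exact interval 3.67 to 125). These 31 reads are below the minimum for the test; with a minimum mean of 5 reads, at which 21.7% of 10352 genes were called, the adjusted p was 0.0446. In CTR ExE all 82 and 7 reads were maternal, at least 29.7-fold more than paternal (edgeR adjusted p = 0.000574, DESeq2 adjusted p = 0.331). Reads of Meg3 and Rian were thus mainly maternal in both stages, for Rian in morulae on 31 reads. The change of Rian between stages was not called either (edgeR adjusted p = 0.267).

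**Figure D1:**
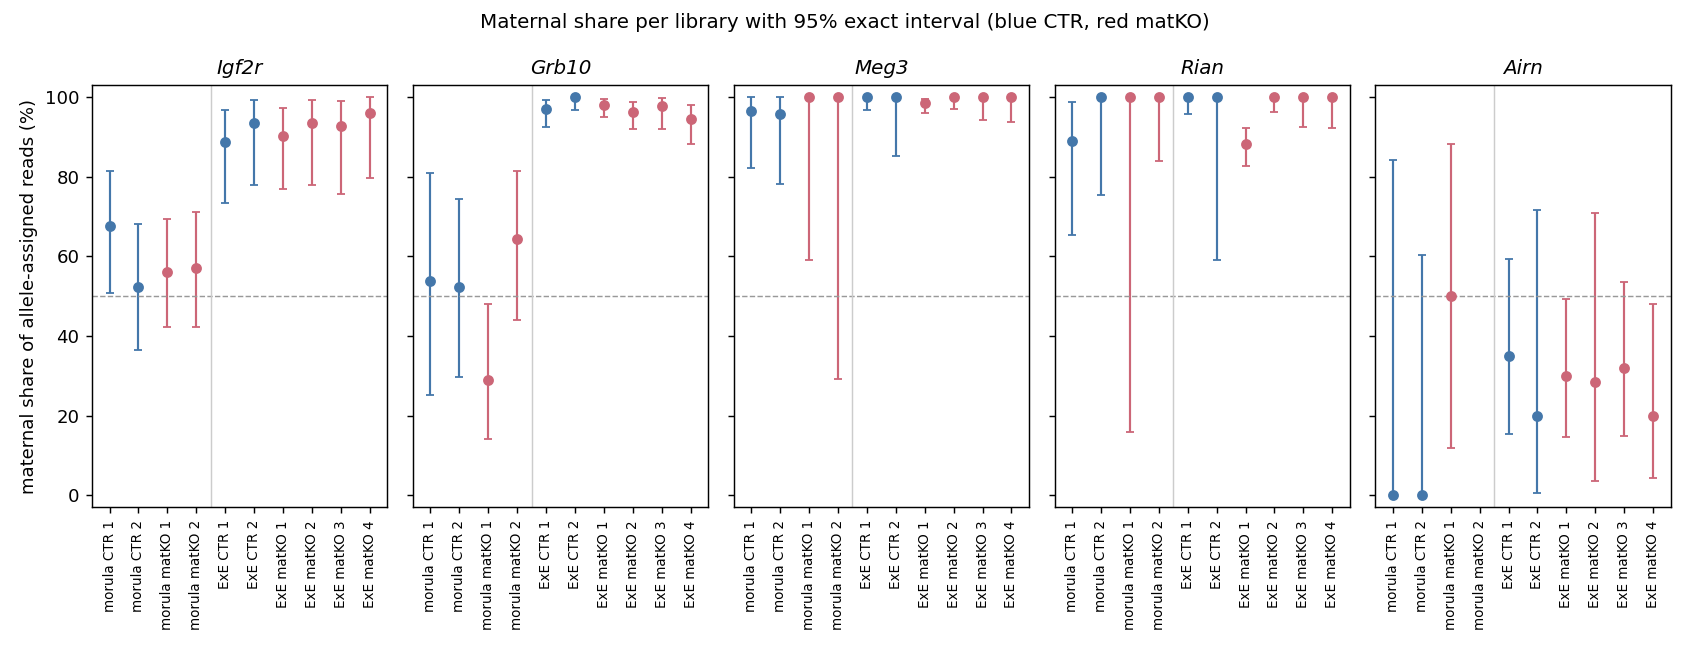
Maternal share of allele-assigned reads (y axis, percent) for Igf2r, Grb10, Meg3, Rian and Airn in each morula and ExE library (x axis), with points for the share, bars for 95% exact intervals and a dashed line at 50%; blue is CTR and red matKO, and a library with no read has no point. Igf2r and Grb10 lie at 52.4 to 67.5% in CTR morulae and between 88.6% and 100% in CTR ExE, Meg3 and Rian lie at 88.1% or more in every library, and Airn lies at 20% to 35.0% in ExE.

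Airn (17:12741311-12859884) had mainly paternal reads in every ExE library. In CTR ExE it had 7 maternal and 13 paternal reads in replicate 1 and 1 and 4 in replicate 2. In matKO ExE the maternal and paternal reads were 9 and 21, 2 and 5, 8 and 17, and 3 and 12 in replicates 1 to 4. The maternal share was 27.5 ± 10.6% (SD, n = 2) in CTR and 27.6 ± 5.29% (SD, n = 4) in matKO ExE, below 50% in all 6 libraries, but the interval of the summed CTR reads reached 53.5%. Airn was below the minimum for the test, and with a minimum mean of 5 reads, at which 26.5% of 8523 genes were called, its CTR ratio did not pass (log2 −1.21, SE 0.83, edgeR adjusted p = 0.337). CTR morulae had 2 and 4 reads, all paternal. Airn overlaps Igf2r over 28396 bases, and the libraries do not mark the strand, so reads from the overlap cannot be told apart between the 2 genes.

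Dlk1 (12:109452485-109463336) had almost no reads in control embryos. All 4 morula libraries were at 0, and CTR ExE had 1 read in replicate 1 and 0 in replicate 2. MatKO ExE had 0, 11, 5 and 13 reads in replicates 1 to 4. Of these 29 reads 28 were maternal, a share of 96.6% (95% exact interval 82.2 to 99.9%), although Dlk1 is known as a paternally expressed gene. The groups overlap, since matKO replicate 1 had no read. The read ratio of matKO to CTR per library total was 16.4 (95% exact interval 2.72 to 669, counting error only), and the change was not called (edgeR adjusted p = 0.335).

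The 2 transporter genes beside Igf2r had counts in oocytes and hardly any in the smaller embryo libraries. Slc22a2 (17:12584189-12628489) had 16 and 12 counts in CTR FGO and 20 and 13 in KO FGO. Slc22a3 (17:12419972-12507704) had 36 and 77 counts in CTR FGO and 63 and 54 in KO FGO. In embryos each had 2 reads, both paternal, in 1 morula matKO library and 0 in the other 9. A count of 0 allows up to 1.78 to 2.31 CPM in morulae and 0.688 to 0.883 CPM in ExE. In FGO, Slc22a2 had 0.467 to 0.909 CPM and Slc22a3 1.37 to 2.99 CPM. The Slc22a2 level in FGO lay below the morula limits and near those of ExE, so a similar level could give 0 in embryos. Allele-assigned counts can be 0 for other reasons than absence: Pou5f1, a pluripotency gene known to be active in morulae, had 872 reads in CTR FGO and 0 in all 10 embryo libraries. Whether reads of Slc22a2, Slc22a3 and Dlk1 can be assigned to an allele was not tested.

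Known imprinted genes outside these domains give the level of bias to compare with. In CTR ExE 7 of 8 tested genes listed as maternal and 6 of 7 listed as paternal were called towards their listed parent. In CTR morulae these were 0 of 3 and 4 of 6, and none was called towards the other parent at either stage. The ExE shares of Grb10, Meg3 and Rian lay beside those of H19 (99.8% and 99.7%), an imprinted noncoding RNA, and Phlda2 (98.4% and 98.0%), a placental growth regulator. Other listed maternal genes had lower shares, Osbpl5 87.0% and 79.2%, Nap1l4 74.5% and 70.6% and Ppp1r9a 65.1% and 71.4%. Igf2r, at 88.6% and 93.3%, lay between Osbpl5 and Phlda2.

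Genes around these 3 domains were compared in CTR libraries within 1000 kb of the Igf2r, Grb10 and Meg3 starts, at a mean of at least 20 reads. Around Igf2r in ExE, 8 other genes had maternal shares of 26.9 to 82.8% of summed reads, and 5 were called, 3 of them maternal, beside 29.3% of all genes called and 16.1% called maternal in CTR ExE. The highest was 4732491K20Rik at 82.8%, beside Map3k4, a stress kinase gene, at 69.0% and Agpat4, a lipid synthesis gene, at 69.8%; the lowest were Tcte2 at 26.9% and Wtap, an RNA methylation cofactor, at 29.7%. Igf2r at 90.8% lay above all of them. In morulae 9 genes there had 35.6 to 62.9% and none passed (edgeR adjusted p = 0.0726 to 0.792). Map3k4 and 4732491K20Rik start beside each other, and the libraries do not mark the strand, so their reads may not be separate.

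Around Meg3 in ExE the 4 other genes had shares of 44.0 to 51.7%, and Wars, a transfer RNA synthetase gene, was called paternal (45.3%). Meg3 and Rian at 100% stood outside that range. In CTR morulae the highest of 4 other genes was Mirg, the next noncoding RNA of the cluster, with 20 maternal and 2 paternal reads in replicate 1 and 14 and 10 in replicate 2 (edgeR adjusted p = 0.240). In CTR ExE the 14 Mirg reads were all maternal. Around Grb10 the only other ExE gene with enough reads was Fignl1, a DNA repair gene, at 61.1% (called), against 98.4% for Grb10; Ddc, which makes dopamine and serotonin and is itself known as imprinted in heart, was called paternal in morulae (33.0%) and had too few reads in ExE.

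**Figure D2:**
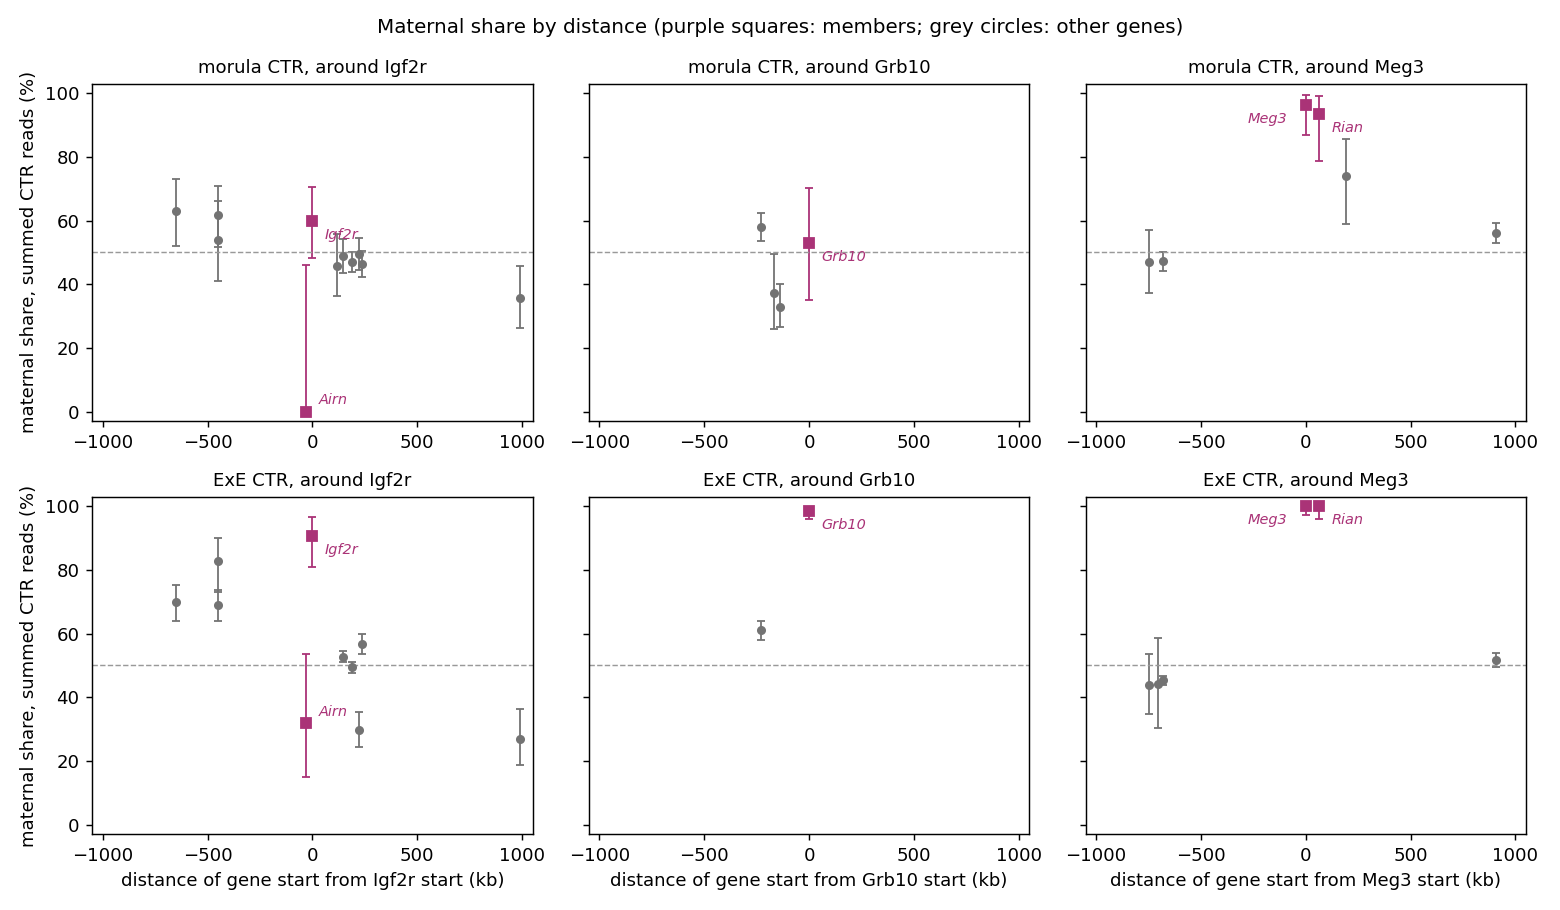
Maternal share of summed CTR reads (y axis, percent, with 95% exact intervals) against the distance of each gene's start from the start of Igf2r, Grb10 or Meg3 (x axis, kb), in morulae (top) and ExE (bottom). Purple squares are the genes described here with at least 5 reads and grey circles other genes; in ExE, Igf2r (90.8%), Grb10 (98.4%), Meg3 and Rian (100%) lie above every grey circle of their panel.

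For genes with at least 20 reads in each of the 10 embryo libraries, the genes with the most similar shares were found. Among the 8 genes only Igf2r qualified, with 5197 genes to compare. The closest by mean absolute difference of the share over the 10 libraries were Bcas2 (4.51 percentage points), a splicing factor gene, Zfp951 (4.75), a zinc finger gene, and Adh5 (4.85), a formaldehyde-oxidising enzyme gene. Their mean shares were 54.7 to 59.9% in morulae and 89.4 to 97.1% in ExE.

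Total levels of the embryos were compared over the CTR libraries of both stages. Igf2r had 23.7 and 26.5 CPM in morulae and 8.30 and 6.88 CPM in ExE. Grb10 had 7.71 and 13.2 CPM in morulae and 31.8 and 26.1 CPM in ExE. The groups did not overlap for either gene, lower in ExE for Igf2r and higher for Grb10; such groups were found for 85.4% of 9977 genes. Of the 4 genes tested, Grb10 was called higher (log2 2.13, SE 0.39, edgeR adjusted p = 0.000389) and Igf2r lower (log2 −1.06, SE 0.40, adjusted p = 0.0339), against a background of 67.5% called, 27.8% higher and 39.7% lower, and a median log2 of −0.28 over all genes. The Igf2r call was lost without any 1 of the 4 libraries (adjusted p = 0.0577 to 0.131) and with DESeq2 (adjusted p = 0.124).

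The CTR ExE libraries differed several-fold in Meg3 and Rian, and no stage difference passed. Meg3 had 17.2 and 14.5 CPM in CTR morulae and 25.6 and 5.27 CPM in CTR ExE replicates 1 and 2. Rian had 10.7 and 8.19 CPM in morulae and 19.4 and 1.60 CPM in ExE. ExE replicate 1 was above and replicate 2 below the morulae for both genes, and neither was called (log2 0.61, SE 0.63, and 0.79, SE 0.98; edgeR adjusted p = 0.417 and 0.504). Without ExE CTR replicate 2 both were called higher in ExE (log2 1.32 and 1.67, adjusted p = 0.0127 and 0.00749), and without replicate 1 both log2 values were negative (−0.86 and −1.81).

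**Figure D3:**
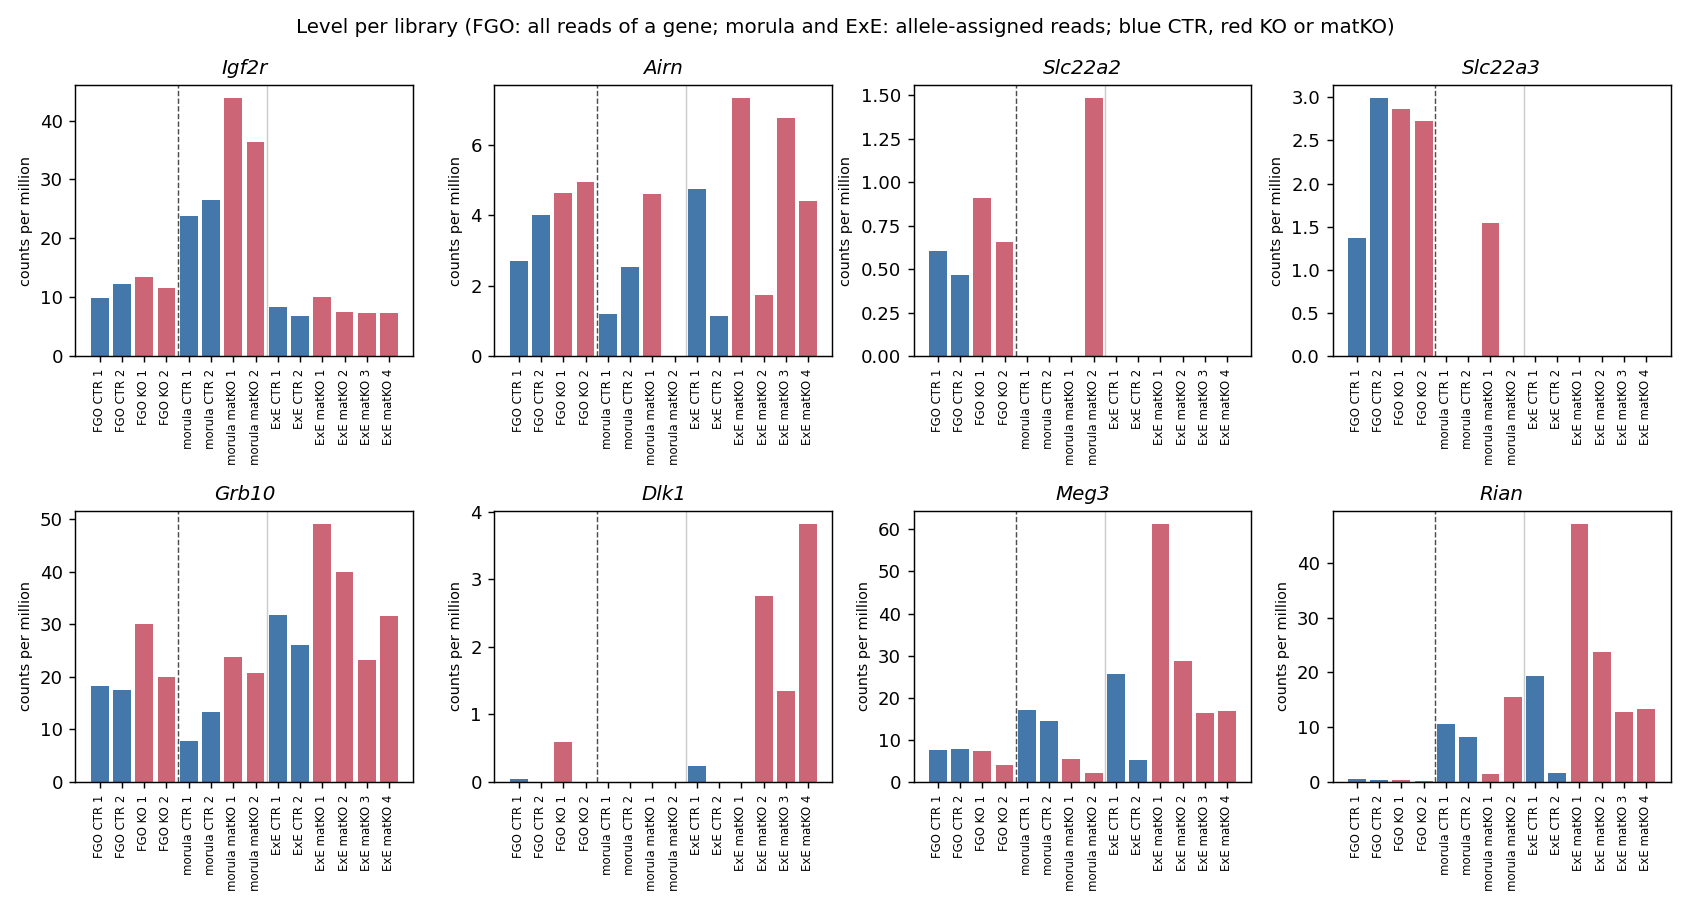
Level of each of the 8 genes (y axis, CPM, 1 panel a gene with its own scale) in each of the 14 libraries (x axis), blue for CTR and red for KO or matKO. The dashed line separates FGO, where all reads of a gene are counted, from embryos, where allele-assigned reads are counted; Igf2r is higher in the 2 matKO morulae (43.9 and 36.4) than in CTR (23.7 and 26.5), and Meg3 is lower (5.39 and 2.23 against 17.2 and 14.5).

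In the oocyte libraries labelled KO, none of these genes was called. Igf2r had 9.94 and 12.2 CPM in CTR and 13.4 and 11.5 in KO (log2 0.07, SE 0.22), and the groups overlapped. Grb10 had 18.3 and 17.5 CPM in CTR and 30.0 and 19.99 in KO (log2 0.37, SE 0.20), higher in both KO libraries. Meg3 had 7.70 and 7.82 CPM in CTR and 7.27 and 3.99 in KO (log2 −0.58, SE 0.29), lower in both. Of the 6 genes tested, 0 were called by edgeR (adjusted p = 0.29996 to 0.904; DESeq2 called 0 as well, and 0 had an unadjusted p under 0.05) against a background of 7.22% of 13459 genes. The groups did not overlap for 4 of the 6, Airn, Slc22a2 and Grb10 higher and Meg3 lower, beside 50.2% of all genes tested. Rian had 12 and 9 counts in CTR and 8 and 2 in KO, and Dlk1 1 and 0 in CTR and 13 and 0 in KO, too few to be tested.

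Morulae from knockout oocytes had more Igf2r and Grb10 reads and fewer Meg3 reads, but no change passed. Igf2r had 23.7 and 26.5 CPM in CTR and 43.9 and 36.4 in matKO (log2 0.71, SE 0.31, edgeR adjusted p = 0.260). Grb10 had 7.71 and 13.2 CPM in CTR and 23.9 and 20.8 in matKO (log2 1.13, SE 0.46, adjusted p = 0.238). Meg3 had 17.2 and 14.5 CPM in CTR and 5.39 and 2.23 in matKO (log2 −2.001, SE 0.62, adjusted p = 0.154). The 3 genes had groups that did not overlap, as did 53.1% of all genes tested. Rian did overlap, with 10.7 and 8.19 CPM in CTR and 1.54 and 15.6 in matKO, so matKO replicate 1 was low for both noncoding RNAs and replicate 2 for Meg3 only. Of the 4 genes tested, edgeR called 0, 2 had an unadjusted p under 0.05 (Grb10 and Meg3) and DESeq2 called 0, against a background of 0.132% of 9063 genes. In the same libraries the 9 trophectoderm and ExE markers summed to 1726 and 1605 CPM in CTR and to 949 and 1154 CPM in matKO; their part in these differences was not tested, and fewer cells of a type and less RNA per cell cannot be told apart in bulk libraries.

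No allelic shift of these genes passed in matKO morulae. Igf2r had 32 maternal and 25 paternal reads in matKO replicate 1 and 28 and 21 in replicate 2, a share of 56.6 ± 0.709% (SD, n = 2) against 59.9 ± 10.7% in CTR. Grb10 had 9 and 22 reads in replicate 1 and 18 and 10 in replicate 2, so 1 matKO library was mainly paternal (29.0%) and the other mainly maternal (64.3%). The 10 Meg3 reads and the 23 Rian reads of matKO morulae were all maternal. Mirg, of the same cluster, had 5 maternal and 4 paternal reads in matKO replicate 1 and 7 and 7 in replicate 2. The changes of ratio of Igf2r (log2 −0.15, SE 0.52) and Grb10 (log2 −0.36, SE 0.94) were not called (edgeR adjusted p = 0.976 and 0.964), with 0.0393% of 7637 genes called. Exact two-sided permutation tests of the share gave p = 0.333 for Meg3 and 1 for Igf2r, Grb10 and Rian, and 2 against 2 libraries cannot go below 0.333.

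In matKO ExE, Igf2r, Grb10, Meg3 and Rian were at least 88.1% maternal in every library. Igf2r had 37 maternal and 4 paternal reads in matKO replicate 1, 28 and 2 in replicate 2, 25 and 2 in replicate 3 and 24 and 1 in replicate 4, a share of 93.0 ± 2.37% (SD, n = 4) against 91.0 ± 3.37% in CTR. Grb10 had 197 and 4, 154 and 6, 84 and 2, and 101 and 6, a share of 96.6 ± 1.65% (SD, n = 4) against 98.5 ± 2.11% in CTR. The CTR and matKO libraries overlapped for both genes. Meg3 had 247 maternal and 4 paternal reads in matKO replicate 1, and its 115, 61 and 57 reads in replicates 2 to 4 were all maternal. Rian had 170 maternal and 23 paternal reads in replicate 1 (88.1%, 95% exact interval 82.7 to 92.3%) and 95, 47 and 45 maternal reads with no paternal read in the others. Replicate 1 thus held all 27 paternal reads of the Meg3 and Rian pair in matKO ExE.

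No allelic change in ExE was called for the 4 genes tested (edgeR adjusted p = 0.927 to 0.966), against a background of 0.0729% of 6857 genes. The log2 change of the ratio was 0.61 (SE 0.86) for Igf2r, −0.81 (SE 0.80) for Grb10, −2.03 (SE 1.61) for Meg3 and −4.10 (SE 4.50) for Rian. Exact two-sided permutation tests of the share gave p = 0.400 for Grb10, 0.533 for Igf2r and 1 for Airn, Meg3 and Rian, where 2 against 4 libraries cannot go below 0.0667; over all 9 such tests of both stages every adjusted p was 1. Without matKO replicate 3, whose autosomal reads were mainly paternal, the matKO shares were 93.2 ± 2.88% for Igf2r and 96.2 ± 1.81% for Grb10 (SD, n = 3), and the adjusted p of the 4 genes were 0.853 to 0.974. In that replicate Igf2r, Grb10, Meg3 and Rian were 92.6%, 97.7%, 100% and 100% maternal.

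H19 is given beside them as an imprinted gene of another domain with many reads. In CTR ExE it had 1995 maternal and 3 paternal reads in replicate 1 and 2553 and 8 in replicate 2. In matKO ExE the counts were 2080 and 305, 2095 and 2, 1105 and 203, and 1109 and 270 in replicates 1 to 4. Paternal H19 reads were thus more numerous in matKO replicates 1, 3 and 4, whereas paternal Meg3 and Rian reads were found in replicate 1 only. The H19 change was not called (edgeR adjusted p = 0.844). Of the known imprinted genes listed above, none had a called allelic shift in ExE. Their median log2 shift was 2.97 over 7 genes listed as paternal, 7 of them positive. It was −1.63 over 7 listed as maternal, 1 of them positive, against −0.003 over all genes. Peg3, Peg10 and Zrsr1 were at 0% maternal in both CTR ExE libraries, where a share can only rise. Cdkn1c and Ascl2, listed as maternal, were at 98.9 to 100%, where a share can hardly rise. The signs were thus partly set by the CTR shares and show no shift by themselves. Median log2 changes of total level were 0.22 over 9 paternal and −1.22 over 9 maternal genes, none called.

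**Figure D4:**
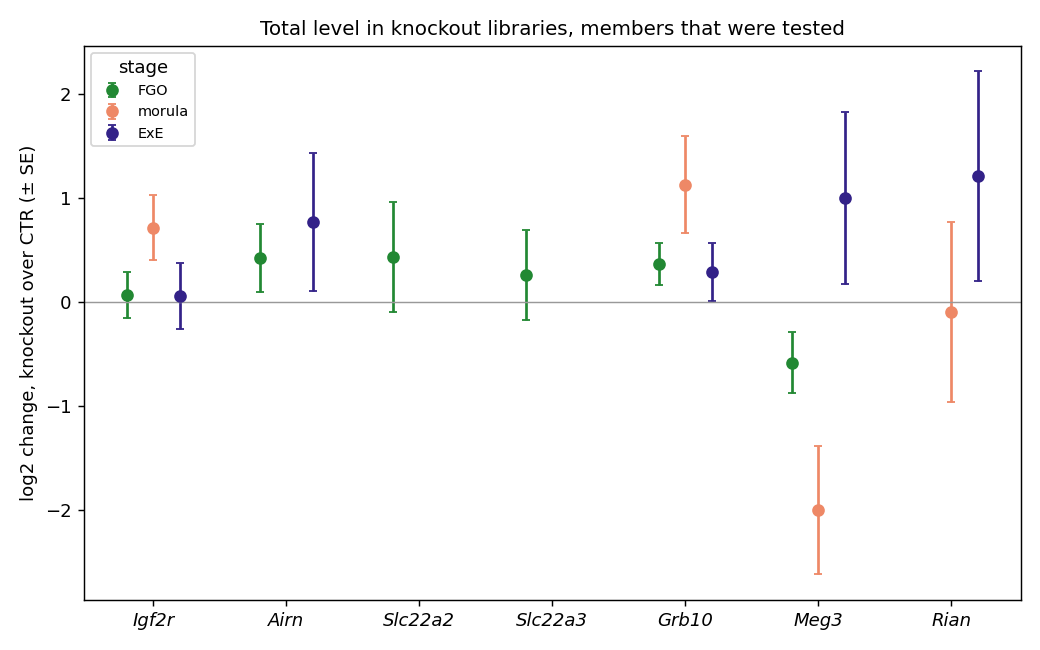
Log2 change of the total level, knockout over CTR (y axis, points with bars of ± SE from edgeR), for each gene that was tested in FGO, morulae and ExE (x axis); Dlk1 is left out because its CTR libraries held 1 read. No point passed the threshold; Meg3 in morulae lies lowest at −2.001 and Rian in ExE highest at 1.21.

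Total levels in ExE were not called either. Igf2r had 8.30 and 6.88 CPM in CTR and 10.02, 7.49, 7.29 and 7.36 CPM in matKO (log2 0.06, SE 0.32). Grb10 had 31.8 and 26.1 CPM in CTR and 49.1, 40.0, 23.2 and 31.5 in matKO (log2 0.29, SE 0.28). Airn had 4.74 and 1.15 CPM in CTR and 7.33, 1.75, 6.75 and 4.41 in matKO (log2 0.77, SE 0.66). The groups of all 3 genes overlapped, whereas 23.8% of all genes had groups that did not. Meg3 had 25.6 and 5.27 CPM in CTR and 61.4, 28.7, 16.5 and 16.8 in matKO (log2 1.00, SE 0.82). Rian had 19.4 and 1.60 CPM in CTR and 47.2, 23.7, 12.7 and 13.2 in matKO (log2 1.21, SE 1.01). Without CTR replicate 1 the log2 values of Airn, Meg3 and Rian were 2.04, 2.47 and 3.82, and without CTR replicate 2 they were 0.11, 0.29 and 0.34 (edgeR adjusted p = 0.201 to 0.993). Without matKO replicate 1 they were 0.54, 0.44 and 0.68 (edgeR adjusted p = 0.831 to 0.845). For Meg3 and Rian, CTR replicate 2 was the lowest of the 6 libraries and matKO replicate 1 the highest, with CTR replicate 1 between matKO replicates 2 and 4. Of the 6 genes tested, edgeR called 0 (adjusted p = 0.335 to 0.954), Dlk1 had an unadjusted p under 0.05 and DESeq2 called 0. The background was 0% of 8386 genes called by edgeR, with 1161 at an unadjusted p under 0.05 and 214 called by DESeq2. Without matKO replicate 3 the adjusted p of the 6 genes were 0.273 to 0.924.

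The lowest and the highest ExE library of Meg3 and Rian were also those of Esrrb and Eomes. The summed CPM of the 9 trophectoderm and ExE markers, which include both of these factors, ran the other way. Mirg had 2.84 and 0.459 CPM in CTR and 6.60, 3.25, 1.62 and 1.47 in matKO. Esrrb, a trophoblast stem cell factor, had 30.8 and 2.06 CPM in CTR and 231, 183, 51.3 and 71.2 in matKO. Eomes, a factor of the same cells, had 104 and 24.5 CPM in CTR and 348, 284, 168 and 198 in matKO. These 3 genes were lowest in CTR replicate 2 and highest in matKO replicate 1, as Meg3 and Rian were, but CTR replicate 1 lay below all 4 matKO libraries for Esrrb and Eomes and above 2 of them for Meg3 and Rian. Esrrb and Eomes are among the 9 trophectoderm and ExE markers and were named after their values were seen. Elf5, also among them, had 307 and 383 CPM in CTR and 512, 499, 529 and 411 in matKO. It was lowest in CTR replicate 1 and higher in all 4 matKO libraries than in CTR, so the members did not all follow the sum. All 9 trophectoderm and ExE markers together summed to 8201 and 8670 CPM in CTR and 3547, 4909, 6022 and 5188 CPM in matKO, highest in CTR replicate 2 and lowest in matKO replicate 1, with Bmp4 at 0 in every library. Markers of the ectoplacental cone and giant cells (4 of 6 with reads, with Prl3d1 and Prl2c2 at 0) summed to 1224 and 2513 CPM in CTR and 84.8, 652, 1255 and 394 CPM in matKO. This sum was likewise highest in CTR replicate 2 and lowest in matKO replicate 1. It was mostly Plac1 and Ascl2. Plac1 had 830 and 1987 CPM in CTR and 2.69, 469, 1000 and 125 in matKO. Ascl2 had 353 and 464 CPM in CTR and 68.2, 162, 219 and 232 in matKO. The 9 blood markers were at 0 in every ExE library, and those of maternal decidua summed to 1.60 to 6.40 CPM in CTR and 1.35 to 23.0 CPM in matKO, with Cryab, Hand2, Hoxa10, Hoxa11 and Dcn at 0 throughout. The largest decidual sum was in matKO replicate 1, where 75 maternal reads of Prl8a2 were counted. Visceral endoderm markers summed to 1.38 to 2.84 CPM in CTR and 5.67 to 21.3 CPM in matKO. Pluripotency markers summed to 33.2 and 2.06 CPM in CTR and 254, 198, 54.6 and 81.5 in matKO. Epiblast and mesoderm markers summed to 532 and 317 CPM in CTR and 758, 666, 472 and 606 in matKO. Sox2, a pluripotency gene, had 2.13 and 0 CPM in CTR and 23.2, 14.99, 3.24 and 10.01 in matKO. These were lowest in CTR replicate 2 and highest in matKO replicate 1, like Meg3 and Rian. Esrrb alone had 2.06 CPM in CTR replicate 2, so the pluripotency sum may not be separate from it. The part of these cell types in the Meg3, Rian and Dlk1 values was not tested.

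Lists of genes from the pathways of IGF2R, GRB10 and DLK1 held called genes in KO oocytes. Over all genes 7.22% of 13459 were called. Of 22 tested genes of the IGF and insulin axis, 3 rose and 1 fell in FGO: Igf2, the ligand that IGF2R clears (log2 4.06, SE 0.65), Igfbp6, an IGF-binding protein (1.58, SE 0.29), and Igf2bp1, an RNA-binding protein (1 count in CTR and 129 in KO, a ratio per library total of 161 with a 95% exact interval of 28.3 to 6395), rose, and Igfbp7 fell (−0.70, SE 0.16; edgeR adjusted p = 0.00248 to 0.0322). Their median log2 was 0.29, against 0.00 over all genes. Of 13 Notch and DLK pathway genes 3 rose and 0 fell, the targets Hes1 (3.84, SE 0.51) and Hey1 (1.63, SE 0.32) and the ligand Dll3 (0.67, SE 0.17), with a median of 0.29. Of 14 imprint maintenance genes only Zfp445, a zinc finger gene that protects imprints, rose (0.92, SE 0.22), with a median of −0.06. None of 10 genes of the mannose 6-phosphate route was called (median −0.05), the smallest p being that of Gnptab (−0.70, SE 0.24, adjusted p = 0.121), which makes the tag. None of 2 other organic cation transporters was called. Of 9, 5 and 7 tested neighbours of Igf2r, Grb10 and Dlk1-Meg3 only Ikzf1, a lymphoid factor beside Grb10, rose (2.77, SE 0.64, adjusted p = 0.0368).

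In matKO embryos no gene of these lists was called by edgeR at either stage, where 0.132% of 9063 genes in morulae and 0% of 8386 in ExE were called in all, so the lists do not stand apart by this count. In morulae the IGF and insulin axis had a median log2 of −0.48 over 11 tested genes, the Notch and DLK genes −0.09 over 6, imprint maintenance 0.07 over 14 and the mannose 6-phosphate route 0.06 over 9, against −0.02 over all genes. Slc22a5, a carnitine transporter of the Slc22 family, was nearest to the threshold (85 and 38 reads in CTR against 0 and 2 in matKO, 49.7-fold per library total with a 95% exact interval of 13.5 to 415, adjusted p = 0.0565). In ExE the medians were −0.09 over 16, −0.18 over 8, 0.18 over 13 and −0.03 over 9, against 0.00 over all genes. The smallest p there were those of Gusb, a lysosomal enzyme (log2 −1.12, SE 0.25, adjusted p = 0.145), and the PRC2 subunit gene Eed (0.87, SE 0.20, adjusted p = 0.168).

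Between CTR morulae and CTR ExE most of these pathway genes differed, as did 67.5% of all genes. Of 16 tested IGF and insulin genes 9 were higher and 5 lower in ExE, of 9 mannose 6-phosphate genes 3 and 5, of 9 Notch and DLK genes 1 and 5, of 3 organic cation transporters 0 and 2 and of 14 imprint maintenance genes 5 and 4. Igf2 had 2.11 ± 1.21 CPM in morulae and 190 ± 13.7 CPM in ExE (SD, n = 2 each), so the ligand had more CPM in ExE and the receptor fewer. The call of the receptor gene Igf2r as lower was lost when any 1 library was left out and with DESeq2. Igf2 reads in ExE were 23.5 ± 4.19% maternal (SD, n = 2), a paternal bias (edgeR log2 −1.79, SE 0.12, adjusted p = 1.74e-05) beside the maternal bias of its receptor. In CTR morulae the 7 Igf2 reads were all maternal.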

How the data were processed

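RNA of fully grown oocytes, morulae and ExE was sequenced from polyA libraries made with SMART-Seq v4 and Nextera XT, per the labels' protocols. The authors deposited 1 table of raw read counts per gene (24077 genes), with 1 column per oocyte library and a maternal and a paternal column per embryo library. The submitters' processing notes name STAR 2.7.3, RSEM 1.3.1, Bowtie2 2.3.5, Trim Galore 0.6.4 and the builds mm10 and dm6, without roles; for the counter, the annotation and the rule that assigned reads to alleles, nothing was found (not given in the sources used here). Whole-gene and allele-assigned counts were not compared by test.

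Total counts were tested with edgeR 4.0.16 in R 4.3.3 (TMM factors, filterByExpr, robust quasi-likelihood test, Benjamini-Hochberg adjustment over all genes tested, threshold 0.05). Allele ratios were fitted with a term per library, an allele term and its interaction with genotype or stage, with the autosomal total of each allele as offset and a minimum mean of 20 allele reads; fits with ExE used autosomal genes. DESeq2 1.42.0 was an alternative. The scripts were tested on simulated data. Intervals are exact Clopper-Pearson at 95%, and they and the floor of 3 counts cover counting error only. Positions and promoter windows are from RefSeq (GRCm38.p6).

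Each of the 8 genes is named in every comparison; of each list, called genes and the uncalled genes of smallest p are named, and the H19 counts in matKO ExE were chosen after their values were seen. The genes and lists were chosen with earlier results of these data known. Alternatives were another normalization, filter, offset, read minimum and test, a replicate block and leaving out each replicate. CUT&RUN samples are not analysed here.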

Additional observations from a re-analysis of the deposited data

Results flagged for a closer look

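In ExE matKO, replicate 1 stood apart from the other 3 libraries in 3 values of these genes. Its Igf2r level was 10.02 CPM, with the others at 7.29 to 7.49 CPM. Its maternal share was 98.4% for Meg3 and 88.1% for Rian, with the others at 100% for both. The same library was the highest of the 6 ExE libraries for total Meg3, Rian, Esrrb and Eomes. Any single share below 100% stands apart in such a group, so no chance rate applies to these shares. The 98.4% of Meg3 rests on 4 paternal of 251 reads and lies within the 95% exact intervals of the other libraries, which reach down to 96.8, 94.1 and 93.7%. For a level such as that of Igf2r, chance sets a library apart in about 1 in 20 groups. The maternal over paternal ratio of Grb10 differed between CTR ExE and CTR morulae by log2 5.66 in a test of the difference itself (edgeR adjusted p = 0.00543).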

How the results depend on the processing

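Over 36 results on these genes, 263 alternative values kept direction and call, 9 lost the call, 4 gained it and 14 changed sign; the cause was not tested. Leaving out a library gave log2 KO changes of −0.091 to 0.23 for Igf2r and −0.21 to 0.94 for Slc22a3 in FGO, the negative values without CTR replicate 1. The morula change of Rian was −2.51 to 0.75, positive (0.10) without CTR replicate 1 and without matKO replicate 1. The ExE change of Igf2r was −0.051 to 0.15, negative without CTR replicate 2 (−0.03) and without matKO replicate 1. Stage changes were −0.86 to 1.32 for Meg3 and −1.81 to 1.67 for Rian, negative without ExE CTR replicate 1. Allelic shifts in morulae were −0.63 to 0.29 for Igf2r and −1.43 to 0.72 for Grb10. In ExE they were −4.68 to 0.067 for Grb10, −2.75 to 0.63 for Meg3 and −4.996 to 0.86 for Rian, positive without matKO replicate 1 for both noncoding RNAs and without CTR replicate 2 for Grb10; with DESeq2 the Rian shift was 0.28.

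Counts of called genes moved more. FGO gave 1630 genes with no filter and 767 to 2029 with a library left out. Morula matKO gave 54 with DESeq2 size factors, 489 with no filter, 208 with DESeq2 and 7 to 524 with a library left out. ExE matKO gave 112 with no filter, 214 with DESeq2 and 0 to 6 with a library left out. DESeq2 called 1153 and 1224 genes for the allele ratio in CTR morulae and CTR ExE and 396 for the stage difference, for which leaving out a library gave 213 to 388. The allelic shift in morulae gave 19 with a minimum of 5 reads, 14 with DESeq2 and 0 to 3 with a library left out, and that in ExE 4 to 14. Where an arm was left with 1 library, it was assumed to vary like the others. The CTR allele ratios could not be fitted with a library left out or with a block, and DESeq2 gave no adjusted p for the Grb10 shift in morulae.

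The labels share replicate numbers between groups, but nothing states that a number marks a shared litter or day. Deviations of same-numbered libraries correlated at 0.293 in FGO, 0.179 in morulae and 0.302 and 0.147 in ExE. With the replicate block the calls were 2021 in FGO, 310 in morulae, 923 in ExE, 56 and 115 for the allelic shifts in morulae and ExE, 741 for the stage difference of the ratio and 6533 for the stage difference of levels. Under the block Meg3 in ExE had log2 1.71 (edgeR adjusted p = 0.00129), the Rian shift in ExE −5.37 (0.0236) and Igf2r between stages lost its call (0.0535); no other call of these genes changed. Depth limits the morulae most: Grb10 rests on 34 CTR reads there.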
